A study of Mus musculus with 28 samples.

Results

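The comparison set dorsal skin of control mice 15 days old (P15) against that of control mice 10 days old (P10). It took the control arrays that shared a glass slide: all 6 P15 controls (replicates 1 to 6) and P10 controls 1 to 4, which are 10 of the 28 Illumina BeadChip arrays of a study of the adaptor gene Gab1 in skin. Each array reads the brightness of beads that carry copies of 1 probe. The study's mutants are named K14-cre;Gab1fl, for a floxed Gab1 gene and a Cre recombinase driven by a keratin promoter of basal keratinocytes, and the controls are given in the labels as control skin of the same mixed C57/BL6;129Ola stock, without their exact alleles. P10 controls 1 and 2 and P15 controls 1 to 3 lay on slide 4, and P10 controls 3 and 4 and P15 controls 4 to 6 on slide 3. Nothing in the labels says whether each array holds a separate animal, so p-values measure the spread between arrays, which may be technical in part. Another 6 P10 controls (replicates 5 to 10) lay on slides 1 and 2 with the 6 P10 mutants, and 6 P15 mutants lay on slides 3 and 4.

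Over these days the hair follicles of a mouse are finishing their development. In the bulb at the follicle base, matrix cells divide around the dermal papilla, a cluster of fibroblasts that sends growth signals, and their daughters become hair shaft and root sheaths. Melanocytes in the same bulb pass pigment to the shaft cells for as long as the follicle grows. After this first growth phase, called anagen, the follicle regresses in catagen. The dermis, the fat layer and the thin skin muscle around the follicles are still growing, and the litter changes from milk to solid food soon after.

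The markers of skin were in place at both ages. Krt5, Krt14, Krt10, Lor, Krt71, Krt31, Col1a1, Adipoq, Dct, Cpa3 and Hba-a1 were detected on all 10 arrays, and the liver, brain, lung and kidney markers Alb, Gfap, Snap25, Sftpc and Umod on none. Other markers of tissues outside skin were not all absent. The lung marker Scgb1a1 was detected on all 10 arrays and the pancreas marker Cela1 on 1 of 4 P10 arrays, while the liver marker Apoa1 was detected on none. The inner root sheath keratin Krt25 and the sebocyte gene Scd3 were not detected on any of the 10 arrays. Some features of the arrays moved with age. The P15 arrays were dimmer, with median raw signals of 56.7 to 68.0 against 70.0 to 82.1 at P10 and with 9789 to 11020 probes detected against 10583 to 12684. On both slides P15 controls lay at positions D to F and P10 controls at G and H, so position and age cannot be told apart. The labels give no sex. Xist, the RNA of the inactive X chromosome, gave log2 signals of 8.65, 8.83, 5.89 and 5.79 in P10 controls 1 to 4 and of 5.47, 8.26, 6.33, 4.96, 5.20 and 5.62 in P15 controls 1 to 6. The Y-linked gene Eif2s3y gave 4.55, 4.70, 9.96 and 9.43 in the P10 controls and 9.35, 6.76, 9.84, 10.26, 10.23 and 10.10 in the P15 controls. Xist was therefore high and Eif2s3y low in both P10 controls of slide 4, while slide 3 held Xist-low arrays only, and P15 control 2 was high for Xist and intermediate for Eif2s3y. With the difference of these 2 signals as a further term, a setting chosen after the values were seen, 1844 of the 2012 genes called below passed again and all 2012 kept their direction.

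Of 9045 genes tested, 2012 (22.2%) passed a limma adjusted p of 0.05, 1052 (11.6%) of them higher and 960 (10.6%) lower at P15. The genes that fell furthest include muscle genes, growth-related genes of early life and pigment cell genes, and those that rose furthest include gut, liver and airway secretion genes and a hair keratin-associated protein. A change of at least 2-fold was present in 95 of the higher and 180 of the lower genes. The values of the 6 P15 and the 4 P10 controls did not overlap for 743 genes that were higher (8.21% of those tested) and 700 that were lower (7.74%). Of the 2012 called genes, 2002 moved the same way on slide 3 and slide 4 taken apart, and 1917 (95.3%) lay on the same side of the 6 P10 controls of the other slides, whose slides hold no P15 array. The calls themselves rest on both slides and on the same 6 P15 arrays. Neither count is therefore an independent check. Quantile normalization gives every array the same distribution of signals. With each array scaled by its median instead, the median of all genes shifted from 0.01 to -0.23 on the log2 scale, and the split became 207 higher and 2045 lower, so the rises of a gene list under that scaling stand beside its own count.

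**Figure D1:**
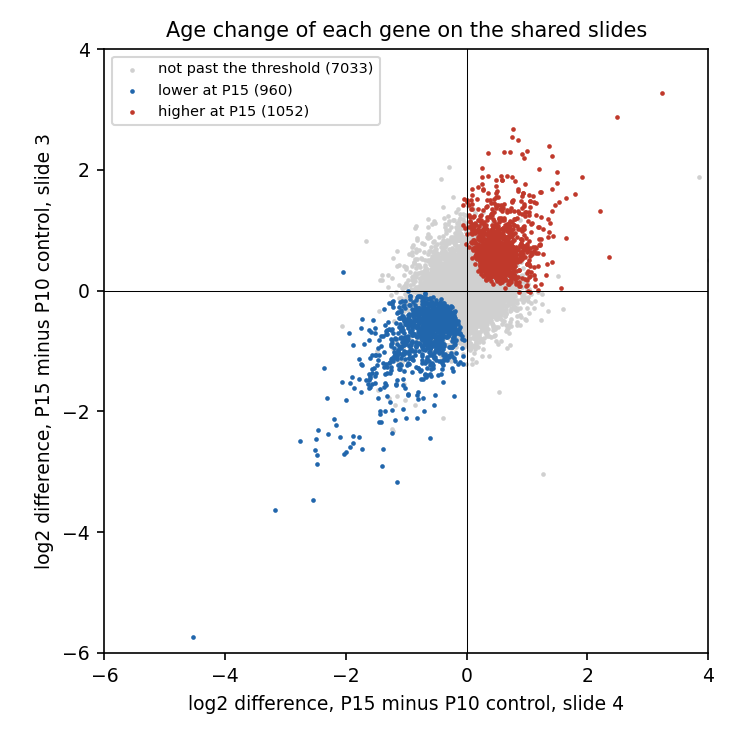
Log2 difference between P15 and P10 controls for each of the 9045 genes, from slide 4 on the horizontal axis and slide 3 on the vertical axis, coloured by the limma call. Of the 2012 called genes, 2002 lie in the lower left or upper right quadrant, and the calls themselves rest on both slides.

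Signals below are normalized log2 values, given for P10 controls 1 to 4 in that order, then as the range and median of the 6 P15 controls. Folds come from the limma fit with slide as a term, and SE is on the log2 scale. "At least" marks a probe that was detected on no array of 1 group: each of those arrays was then given its dimmest detected signal, or its own value where that was higher. A fold "with bounds" treats the undetected arrays of a probe in the same way where part of a group detected it, and its adjusted p comes from the measured values. Where other probes of a gene that rose or fell did not pass, their log2 differences are given. A gene said to rise or fall kept its call with each of the 10 arrays left out in turn unless the sentence says otherwise, and most others stand in the counts only. Counts of list members stand against 11.6% of all genes higher and 10.6% lower. Counts under median scaling stand against 207 of the 9045 genes higher and 2045 lower under that scaling. Counts of members without overlap stand against 8.21% of all genes higher and 7.74% lower. Levels of different probes are not compared. In whole skin, fewer cells of a type and less RNA per cell cannot be told apart.

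Growth-related genes of fetal and early postnatal life, with the growth factor gene Igf2, were among the steepest falls. Dlk1, an imprinted transmembrane protein that holds back the differentiation of fat precursors, gave 8.19, 7.66, 7.91 and 8.42 at P10 and between 4.45 and 5.06 with a median of 4.57 at P15. It was detected on 4 of 4 P10 arrays and 0 of 6 P15 arrays and was at least 3.44-fold (limma adjusted p = 5.57e-06) lower. Igf2, the imprinted insulin-like growth factor of the fetus, fell from 11.96, 11.54, 11.67 and 11.72 to between 8.80 and 9.91 with a median of 9.09. Every P15 value lay below every P10 value, and the fall was 5.57-fold (SE 0.42, limma adjusted p = 1.49e-04). Socs2, a feedback inhibitor of growth hormone signalling, gave 8.20, 8.45, 8.60 and 8.24 at P10 and between 5.57 and 6.62 with a median of 5.93 at P15. It was detected on 1 of 6 P15 arrays and fell 4.10-fold with bounds (limma adjusted p = 3.11e-10). Mest, another imprinted gene, gave 8.64, 8.43, 9.03 and 8.86 against values between 5.22 and 8.10 with a median of 7.16 and fell 3.06-fold with bounds (limma adjusted p = 1.37e-04), detected on 4 of 6 P15 arrays. The 6 P15 values of Mest spread more widely than those of Igf2, but none reached the P10 range.

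Of 12 imprinted growth genes tested, 7 fell and 3 rose (10.6% and 11.6% of all genes), with a median log2 difference of -0.76 against 0.01 over all genes (-0.66 on slide 3 and -0.63 on slide 4). With undetected members at their bound the median was -0.34. Cdkn1c, an inhibitor of cyclin-dependent kinases, fell 2.04-fold (SE 0.20, limma adjusted p = 6.01e-04). The rises were Rasgrf1, a Ras exchange factor (2.48-fold, with 0.60 on the log2 scale and no call for its other probe), Dio3, which inactivates thyroid hormone (1.81-fold), and the amino acid transporter gene Slc38a4 (1.23-fold with bounds), whose call held in 3 of the 10 fits that leave out an array. These 3 genes were named after their values were seen. Under median scaling the counts were 6 lower and 2 higher. Of 14 genes of the growth hormone and IGF axis 5 fell and 1 rose. Under median scaling 8 fell and 0 rose, against 2045 and 207 of all 9045 genes. Igfbp5, a binding protein that modulates IGF activity, fell 1.70-fold (SE 0.17, limma adjusted p = 0.00208). The level of the receptor gene Igf1r was 6.61 to 7.47 at P10 and 6.78 to 7.07 at P15, a log2 difference of -0.16 that did not pass the threshold.

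**Figure D2:**
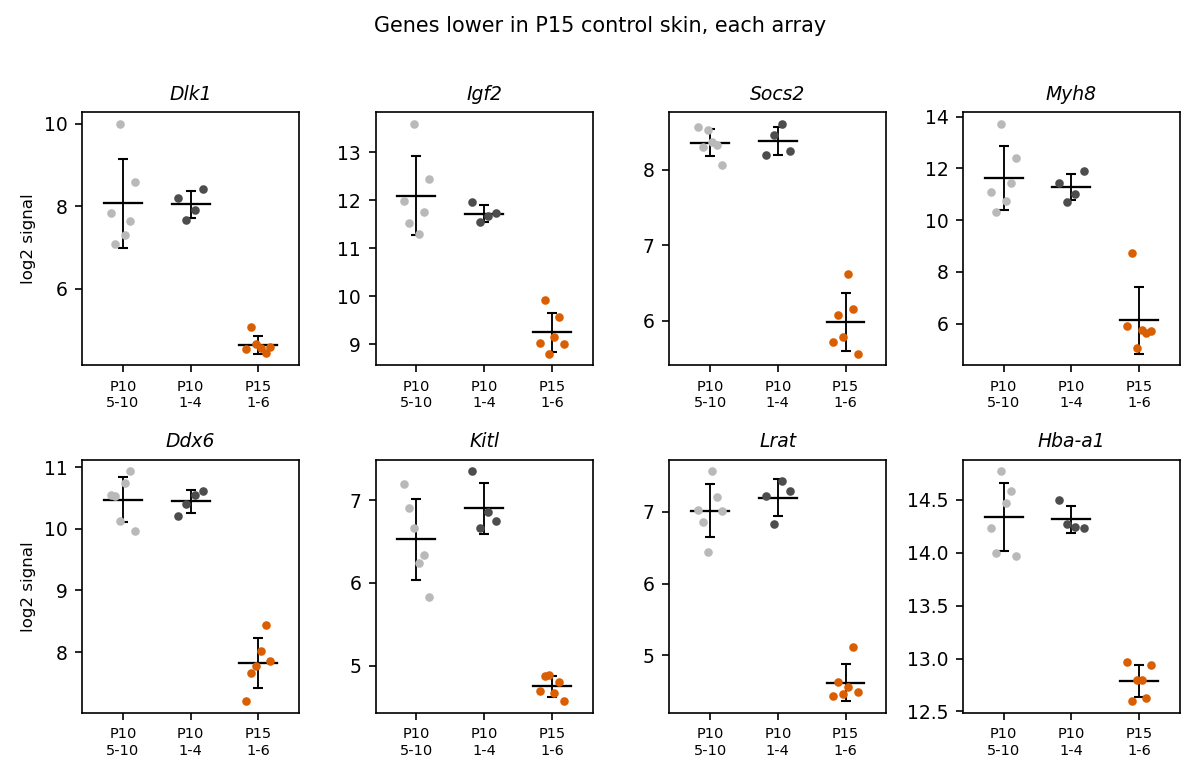
Log2 signal of 8 genes that were lower at P15, with 1 point per array for P10 controls 5 to 10 (other slides), P10 controls 1 to 4 and P15 controls 1 to 6. Horizontal lines are means and bars are SDs, and in each panel the P15 points lie below the points of P10 controls 1 to 4.

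Skeletal muscle genes fell, with 1 array apart from the rest. Myh8, the perinatal myosin heavy chain, had the largest fall of all genes named here. It gave 11.45, 10.72, 11.03 and 11.88 at P10 and 5.90, 8.72, 5.05, 5.77, 5.66 and 5.73 in P15 controls 1 to 6. It was detected on 1 of 6 P15 arrays, and the fold was 24.4 with undetected arrays set at the lowest detected signal (limma adjusted p = 2.52e-05). The array that detected it was P15 control 2. Over the 26 genes of adult muscle, the mean log2 signal was 8.57, 7.91, 7.90 and 8.15 in the P10 controls and 6.43, 8.87, 6.00, 6.79, 6.68 and 5.86 in the P15 controls, so P15 control 2 lay above every P10 control and the other P15 controls below. Of the 26 genes 21 to 25 were detected on each P10 array and 9 to 23 on each P15 array. In P15 control 2 Ckm, the muscle creatine kinase, stood at 9.68 against 8.20 to 9.01 at P10, while Myh8, at 8.72, lay below its P10 range. In the fit 10 of the 26 fell and 0 rose (median -1.43, or -1.04 with undetected members at their bound), and without P15 control 2 there were 12 falls with a median of -1.68. Sln, an inhibitor of the calcium pump of muscle, was detected on 1 of 6 P15 arrays and fell 3.62-fold with bounds (limma adjusted p = 0.00637). The myosin light chain genes Myl1 and Mylpf fell 4.80-fold and 4.58-fold (limma adjusted p = 0.00695 and 0.0120), with values that overlapped between the ages, and the other probe of Myl1 gave -1.36 on the log2 scale without a call. With the mean muscle signal of each array as a covariate, the log2 differences were -3.36 for Myh8, -1.20 for Sln, -0.91 for Myl1 and -0.70 for Mylpf, all past the threshold, and 1600 genes passed in all. Under that covariate the differences of Dlk1 and Igf2 were -2.55 and -1.54. By construction that covariate removes the shift of the muscle list itself, whose median became 0.06. The part of muscle content in the other results was not tested further. The P10 controls of the other slides ranged from 7.90 to 10.80 in mean muscle signal. Without P15 control 2, 1811 genes passed in all, 950 higher and 861 lower.

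The RNA of many genes of the collagen-rich matrix of the dermis was lower at P15, and the matrix itself was not measured. Of 26 matrix genes 17 fell and 0 rose, with a median of -0.75 (-0.68 on slide 3 and -0.78 on slide 4). For 15 of the 26 every P15 value lay below every P10 value, as it did for 7.74% of all genes. Col1a1, a chain of the main fibrillar collagen of skin, gave 12.75, 12.02, 12.27 and 11.99 at P10 and values between 10.88 and 11.51 with a median of 11.18 at P15, and fell 2.09-fold (SE 0.21, limma adjusted p = 7.69e-04). Fbln2, a fibulin of elastic fibres and basement membranes, fell 2.56-fold (SE 0.13, limma adjusted p = 5.18e-08) from 9.93, 9.50, 9.39 and 9.38 to values between 7.90 and 8.51 with a median of 8.16. The other probe of Fbln2 gave a log2 difference of -0.32 (limma adjusted p = 0.471). Dcn, the proteoglycan decorin that coats collagen fibrils, went from 12.66, 12.72, 12.87 and 12.99 to between 11.60 and 12.30 with a median of 11.82, a fall of 1.96-fold (SE 0.11, limma adjusted p = 1.20e-06). In each of these 3 genes the highest P15 control lay under the lowest P10 control. Col6a2, a chain of the beaded-filament collagen of the dermis, and Bgn, the proteoglycan biglycan, fell 2.02-fold and 1.74-fold (limma adjusted p = 2.48e-05 and 4.53e-05). Mfap5, a protein of the microfibrils that scaffold elastin, and Lum, the proteoglycan lumican, fell further, by 2.94-fold and 2.49-fold, and were named after their values were seen. Elastin itself (Eln, -0.34 on the log2 scale) and tenascin C (Tnc, 0.02) did not pass.

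Genes of proteins that trim and crosslink collagen moved with the matrix genes in part. Of 18 collagen processing genes 5 fell and 1 rose. Lox, the lysyl oxidase that crosslinks collagen and elastin, gave 9.81, 9.41, 9.53 and 9.16 and then between 8.46 and 8.74 with a median of 8.56, a fall of 1.88-fold (SE 0.18, limma adjusted p = 9.35e-04). Pcolce, which speeds the removal of the procollagen C-propeptide, fell 2.02-fold (SE 0.19, limma adjusted p = 4.59e-04). The exception was Bmp1, the protease that cuts off that propeptide, which rose 1.43-fold (SE 0.10, limma adjusted p = 3.90e-04) in the main scaling but did not pass under median scaling, and of its other probes 1 passed (log2 difference 0.34) and 2 did not (0.20 and 0.15). Under median scaling 6 of the 18 fell and 0 rose. Basement membrane genes moved in both directions. The collagen IV chain Col4a1 went from 12.99, 12.43, 12.79 and 12.98 to between 11.57 and 11.91 with a median of 11.78 and fell 2.05-fold (SE 0.13, limma adjusted p = 2.51e-06), and Col4a2, Nid2 (detected on 4 of 6 P15 arrays) and Lamc1 fell 1.69-fold, 2.59-fold with bounds and 1.59-fold. Nid2 encodes a nidogen that links laminin to collagen IV, and Lamc1 a laminin chain found in most tissues. By contrast Col7a1, Col17a1 and Lamb3, which anchor the epidermis to its basement membrane, rose 1.56-fold, 1.5-fold and 1.30-fold (limma adjusted p = 0.0271, 0.0172 and 0.0498). These calls held in 6, 9 and 2 of the 10 fits that leave out an array. Of the other probes of Col17a1, 1 passed (log2 difference 0.69) and 1 did not (0.37). The 3 rises, named after their values were seen, did not pass under median scaling, which left 0 higher and 5 lower of the 15.

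Genes of DNA synthesis and cell division were lower at P15, by less than 2-fold in most cases. Of 33 DNA replication genes 19 fell and 0 rose (median -0.46, -0.40 on slide 3 and -0.41 on slide 4), and of 20 mitosis genes 10 fell and 0 rose (median -0.42). Under median scaling the falls numbered 27 and 15, while 2045 of all 9045 genes fell. Relative to the median of all genes, the list medians were then -0.50 and -0.53. The Mcm genes encode the ring-shaped helicase that opens DNA at replication origins, and E2F factors are known to drive them as cells enter S phase. The promoters of 4 of them are shown, chosen because each holds 2 or 3 matches to an E2F-type motif. They come from the RefSeq table of GRCm38.p6 (mouse), each running from 250 bases before to 50 bases after the start of transcription, 5′ to 3′ on the gene's strand. Capitals mark matches to TTTCCCGC, TTTGGCGC, TTTCGCGC or TTTGCCGC on either strand, and overlapping matches run together.
Mcm7 (the first of 2 starts, chr5:138171834-138172133, minus strand): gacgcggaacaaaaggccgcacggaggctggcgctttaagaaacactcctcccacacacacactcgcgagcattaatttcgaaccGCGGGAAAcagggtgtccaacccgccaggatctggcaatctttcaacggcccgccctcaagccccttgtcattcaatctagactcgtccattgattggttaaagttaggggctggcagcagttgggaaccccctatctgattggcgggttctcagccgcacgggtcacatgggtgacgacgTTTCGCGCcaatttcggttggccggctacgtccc
Mcm5 (chr8:75109259-75109558, plus strand): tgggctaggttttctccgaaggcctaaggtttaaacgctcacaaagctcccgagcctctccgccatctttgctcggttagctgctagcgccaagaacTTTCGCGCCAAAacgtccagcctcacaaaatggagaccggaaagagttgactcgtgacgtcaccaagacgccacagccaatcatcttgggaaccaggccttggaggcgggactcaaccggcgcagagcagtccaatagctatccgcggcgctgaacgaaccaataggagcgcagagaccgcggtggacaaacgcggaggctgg
Mcm3 (chr1:20820263-20820562, minus strand): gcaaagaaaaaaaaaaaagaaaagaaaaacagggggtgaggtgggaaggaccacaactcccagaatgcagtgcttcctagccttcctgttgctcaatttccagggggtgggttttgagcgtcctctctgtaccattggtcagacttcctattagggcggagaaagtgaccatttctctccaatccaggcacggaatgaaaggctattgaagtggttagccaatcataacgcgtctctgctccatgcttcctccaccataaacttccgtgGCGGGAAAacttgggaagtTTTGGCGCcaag
Mcm6 (chr1:128359656-128359955, minus strand): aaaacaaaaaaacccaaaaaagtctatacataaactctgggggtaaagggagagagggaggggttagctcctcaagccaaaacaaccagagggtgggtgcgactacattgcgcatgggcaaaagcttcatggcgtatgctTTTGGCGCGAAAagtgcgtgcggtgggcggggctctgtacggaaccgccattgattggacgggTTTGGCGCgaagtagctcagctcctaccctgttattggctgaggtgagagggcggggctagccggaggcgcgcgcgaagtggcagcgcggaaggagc
Such a motif was present in 8 of the 18 falling replication genes that have a promoter in the table (44.4%), in 2 of the 10 others of the list (20%), in 330 of 7303 tested genes (4.52%) and in 2.26% of all 32851 promoters. The falling genes Mcm2 and Mcm10 and the other start of Mcm7 have no match in this window. A match is a description of the letters and not a shown binding site.

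Mcm7 gave 6.75, 7.10, 7.09 and 6.55 at P10 and values between 5.05 and 6.19 with a median of 5.77 at P15. It was detected on 0 of 6 P15 arrays and was at least 1.53-fold (limma adjusted p = 1.17e-04) lower. Mcm5 went from 10.68, 10.99, 10.67 and 10.85 to between 9.75 and 10.33 with a median of 10.26 and fell 1.57-fold (SE 0.14, limma adjusted p = 0.00206), with no overlap between the ages. Mcm3 (detected on 4 of 6 P15 arrays) and Mcm6, named for their promoters after their values were seen, fell 1.63-fold with bounds and 1.61-fold (limma adjusted p = 0.00271 and 0.00509). Of the other probes of Mcm6, 1 fell too (log2 difference -0.43) and 1 gave 2.96 without a call (limma adjusted p = 0.0738). Tk1, the thymidine kinase of dividing cells, gave 9.67, 9.51, 9.48 and 9.53 and then between 8.18 and 9.23 with a median of 8.79, a fall of 1.74-fold (SE 0.14, limma adjusted p = 2.19e-04), while its other probe gave -0.52 on the log2 scale (limma adjusted p = 0.164). Chaf1b, which places histones on new DNA, fell 1.61-fold (SE 0.13, limma adjusted p = 4.72e-04). Among the mitosis genes, the survivin gene Birc5 fell 1.68-fold (SE 0.13, limma adjusted p = 1.49e-04), with signals of 9.25 to 9.60 at P10 and 8.32 to 8.95 at P15. Kif23, a motor protein of the dividing cell's midzone, fell 2.12-fold (SE 0.19, limma adjusted p = 1.74e-04), and Cdc20 and Mad2l1, opposing regulators of the mitotic checkpoint, fell 1.56-fold and 1.69-fold. Of the 3 other probes of Cdc20, 2 fell and the third gave -0.33 on the log2 scale without a call. Ccnd1, the cyclin of early G1 and a Wnt target, fell 2.10-fold (SE 0.12, limma adjusted p = 1.20e-06) from 11.88, 11.72, 11.72 and 11.42 to values between 10.35 and 11.03 with a median of 10.58. Top2a and Plk1, often used as markers of dividing cells, gave log2 differences of -0.22 and -0.32 and did not pass.

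Pigment cell genes fell together and steeply. Of 14 melanocyte genes 11 fell and 0 rose. Every P15 value lay below every P10 value for 11 of the 14, as it did for 7.74% of all genes. The median was -1.30 (-1.42 on slide 3 and -0.84 on slide 4), or -1.05 with undetected members at their bound. The factor MITF is known to bind the M-box, whose core is TCATGTG, in pigment gene promoters. The promoters of the falling genes that hold it are shown from the same RefSeq table, with the core in capitals on either strand.
Mc1r (chr8:123406832-123407131, plus strand): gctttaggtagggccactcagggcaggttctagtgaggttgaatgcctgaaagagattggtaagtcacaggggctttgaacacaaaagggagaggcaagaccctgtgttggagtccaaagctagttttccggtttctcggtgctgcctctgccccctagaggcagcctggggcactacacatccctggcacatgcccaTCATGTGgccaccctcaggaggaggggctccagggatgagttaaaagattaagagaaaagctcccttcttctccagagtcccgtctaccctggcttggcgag
Dct (chr14:118052197-118052496, minus strand): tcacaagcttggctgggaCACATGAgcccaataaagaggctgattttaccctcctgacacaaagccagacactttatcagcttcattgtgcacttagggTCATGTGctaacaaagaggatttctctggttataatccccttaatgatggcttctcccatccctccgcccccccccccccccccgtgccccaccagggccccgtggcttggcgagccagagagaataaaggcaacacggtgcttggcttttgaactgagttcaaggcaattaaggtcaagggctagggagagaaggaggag
Tyr (chr7:87493463-87493762, minus strand): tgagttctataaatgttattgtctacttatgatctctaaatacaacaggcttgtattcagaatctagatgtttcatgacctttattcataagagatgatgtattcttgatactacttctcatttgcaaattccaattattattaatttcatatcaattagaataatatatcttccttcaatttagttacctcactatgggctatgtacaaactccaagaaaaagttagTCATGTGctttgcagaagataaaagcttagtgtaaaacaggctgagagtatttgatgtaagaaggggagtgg
Tyrp1 (chr4:80833963-80834262, plus strand): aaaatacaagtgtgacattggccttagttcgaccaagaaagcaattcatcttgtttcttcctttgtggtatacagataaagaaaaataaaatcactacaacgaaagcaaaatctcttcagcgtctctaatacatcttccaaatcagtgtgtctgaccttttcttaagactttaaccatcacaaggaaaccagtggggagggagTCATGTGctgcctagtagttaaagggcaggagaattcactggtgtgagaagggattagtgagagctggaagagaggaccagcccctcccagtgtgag
The core begins 52 bases before the start in Mc1r, 22 in Tyr and 47 in Tyrp1, and Dct holds 2 matches. It was present in 4 of the 6 falling melanocyte genes with a promoter in the table (66.7%), in 0 of the 3 others, in 194 of 7303 tested genes (2.66%) and in 3.77% of all promoters.

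Mc1r, the melanocortin receptor that steers pigment cells towards dark pigment, gave 7.39, 6.93, 7.12 and 7.05 at P10 and values between 4.59 and 5.16 with a median of 4.74 at P15. It was detected on 0 of 6 P15 arrays and was at least 1.82-fold (limma adjusted p = 1.20e-07) lower. Dct, an enzyme of eumelanin synthesis, was bright at both ages, with 12.42, 12.02, 12.09 and 12.13 and then between 10.27 and 11.06 with a median of 10.57, and fell 2.91-fold (SE 0.16, limma adjusted p = 4.42e-07). Tyr, the tyrosinase that starts melanin synthesis, gave 7.23, 6.48, 7.07 and 6.88 and then between 4.71 and 5.75 with a median of 5.41, with 0 of 6 P15 arrays detected, and was at least 1.57-fold (limma adjusted p = 9.32e-06) lower. Oca2, a melanosome membrane transporter, gave 8.75, 8.62, 8.66 and 8.73 and then between 5.18 and 7.59 with a median of 6.71, and fell 3.91-fold with bounds (limma adjusted p = 8.49e-06), detected on 4 of 6 P15 arrays. The fibril protein gene Pmel, the enzyme gene Tyrp1 and the antigen gene Mlana, named after their values were seen, fell 2.38-fold, 2.39-fold and 2.58-fold. Mitf itself gave -0.07 on the log2 scale and did not pass, with its probe detected on 2 of 4 P10 and 3 of 6 P15 arrays. Kitl, the ligand of the Kit receptor on which melanocytes and mast cells depend, gave 7.35, 6.67, 6.86 and 6.74 at P10 and values between 4.57 and 4.88 with a median of 4.75 at P15. With 0 of 6 P15 arrays detected, it was at least 1.56-fold (limma adjusted p = 1.71e-11) lower.

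**Figure D3:**
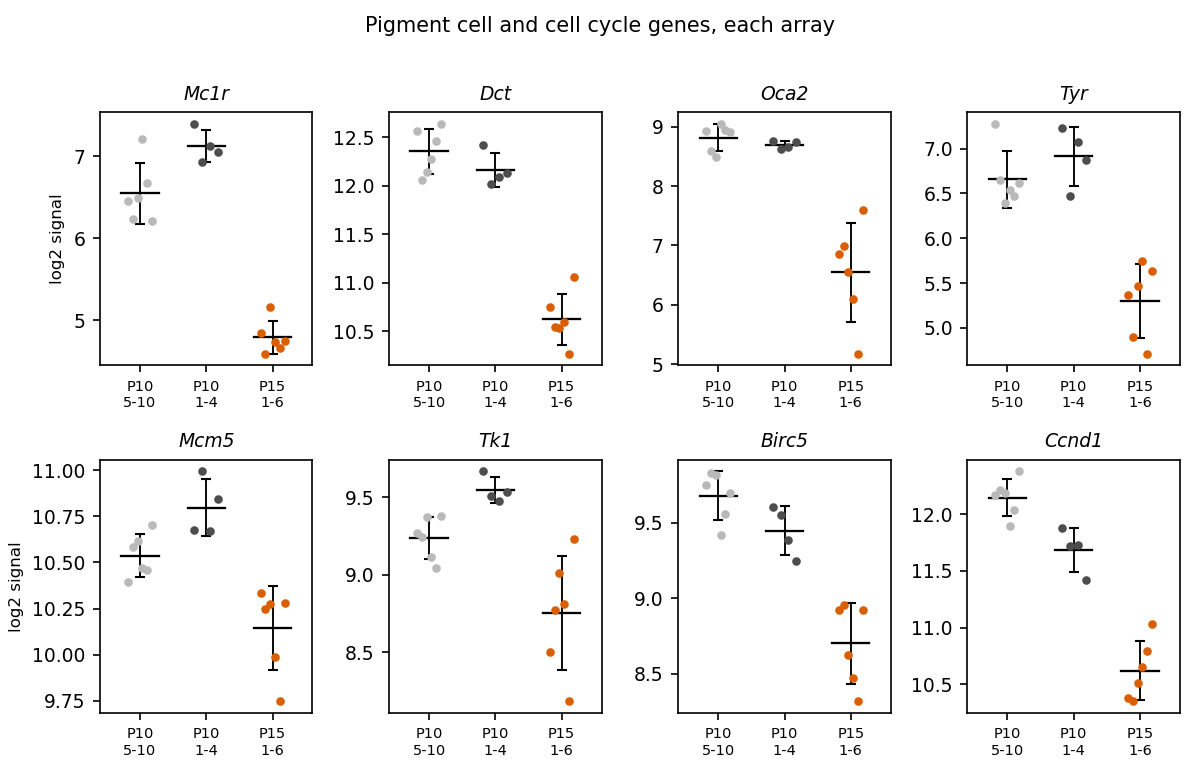
Log2 signal of 4 melanocyte genes (upper row) and 4 cell cycle genes (lower row), with 1 point per array for P10 controls 5 to 10 (other slides), P10 controls 1 to 4 and P15 controls 1 to 6, means as lines and SDs as bars. In all 8 panels the P15 points lie below those of P10 controls 1 to 4.

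Several genes of dermal papilla signals fell, and more genes of the hair fibre and its sheaths rose than fell. Of 13 dermal papilla genes 6 fell and 0 rose (median -0.41, or -0.15 with undetected members at their bound). Fgf10, a fibroblast growth factor made by the papilla, gave 8.02, 8.11, 8.06 and 8.16 and then between 6.91 and 7.59 with a median of 7.22, a fall of 1.84-fold (SE 0.16, limma adjusted p = 3.36e-04). Its relative Fgf7 was detected on 1 of 6 P15 arrays and fell 1.25-fold with bounds (limma adjusted p = 0.00125). Trps1, a zinc finger repressor, and the Wnt inhibitor gene Wif1 (detected on 4 of 6 P15 arrays) fell 1.89-fold and 1.65-fold with bounds (limma adjusted p = 5.31e-05 and 0.00112), and against the 6 P10 controls of the other slides the log2 difference of Wif1 was -2.20. In the matrix, Shh, the hedgehog ligand made at the bulb's side, gave 9.07, 8.79, 8.72 and 8.88 and then between 7.99 and 8.33 with a median of 8.10 and fell 1.65-fold (SE 0.19, limma adjusted p = 0.00682), while the other probe of Shh gave a log2 difference of -0.17 (limma adjusted p = 0.563). Ovol1, a zinc finger factor that ends the growth of differentiating cells, moved the other way, 1.75-fold (SE 0.13, limma adjusted p = 1.13e-04) higher. Lef1 and Msx2 gave log2 differences of -0.53 and -0.02 and did not pass.

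Among genes tied to the end of hair growth, Hr and Fgf5 rose and Esr1 fell. Hr, the hairless corepressor needed for orderly regression, went from 12.08, 12.52, 11.59 and 11.95 to values between 12.97 and 13.24 with a median of 13.10, a rise of 2.10-fold (SE 0.16, limma adjusted p = 4.34e-05) with no overlap. Fgf5, known to end the growth phase, gave 9.71, 10.31, 9.50 and 9.68 and then between 9.90 and 11.09 with a median of 10.53. It rose 1.62-fold (SE 0.17, limma adjusted p = 0.00496), and its lowest P15 values lay within the P10 range. Of 9 genes of that list 2 rose and 1 fell (2 and 0 under median scaling). The list median was 0.11, and -0.12 under median scaling. The fall was Esr1, with a log2 difference of -0.76 (limma adjusted p = 0.00237) that did not pass under median scaling (-0.41). The bulge stem cell gene Krt15 gave a log2 difference of 0.40 (limma adjusted p = 0.117), which was -0.40 against the P10 controls of the other slides.

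Hair fibre genes changed unevenly. Of 28 keratin-associated proteins, which crosslink keratin in the shaft, 13 rose and 3 fell (median 0.44, and 10 rises with a median of 0.26 under median scaling). Krtap4-13 gave 13.20, 13.09, 11.96 and 12.73 at P10 and values between 14.13 and 14.59 with a median of 14.33 at P15, and rose 3.06-fold (SE 0.29, limma adjusted p = 2.53e-04). Krtap1-4 went from 12.44, 12.18, 11.89 and 11.73 to between 13.13 and 13.72 with a median of 13.41 and rose 2.59-fold (SE 0.18, limma adjusted p = 7.18e-06), while Krtap26-1 and Krtap12-1 rose 1.63-fold and 1.84-fold. Krtap19-4 and Krtap31-2 fell 1.96-fold and 1.93-fold and were named after their values were seen. Family members are alike in sequence, so a probe may also pick up a neighbour, as may probes of the Lce, Sprr2, Stfa and keratin families. Among 10 hair shaft keratins 3 rose and 1 fell, with 2 rises under median scaling. Krt40, a keratin of the upper shaft, rose 1.84-fold (SE 0.16, limma adjusted p = 3.42e-04). Krt39, another such keratin, was detected on 1 of 4 P10 arrays and on all 6 at P15 and rose 1.91-fold with bounds (limma adjusted p = 6.31e-04). Its log2 difference was 2.30 on slide 3 and 0.61 on slide 4, where it had no call, 0.69 against the 6 other P10 controls and 0.83 under median scaling. Krt31 (-0.17 on the log2 scale) did not pass. In the inner root sheath 3 of 8 genes rose, also under median scaling (3), and 0 fell: Krt72 rose 1.59-fold (SE 0.15, limma adjusted p = 0.00183), while the rises of Krt26 and Tchhl1 became log2 differences of 0.23 and -0.18, without a call, when set against the 6 other P10 controls alone.

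**Figure D4:**
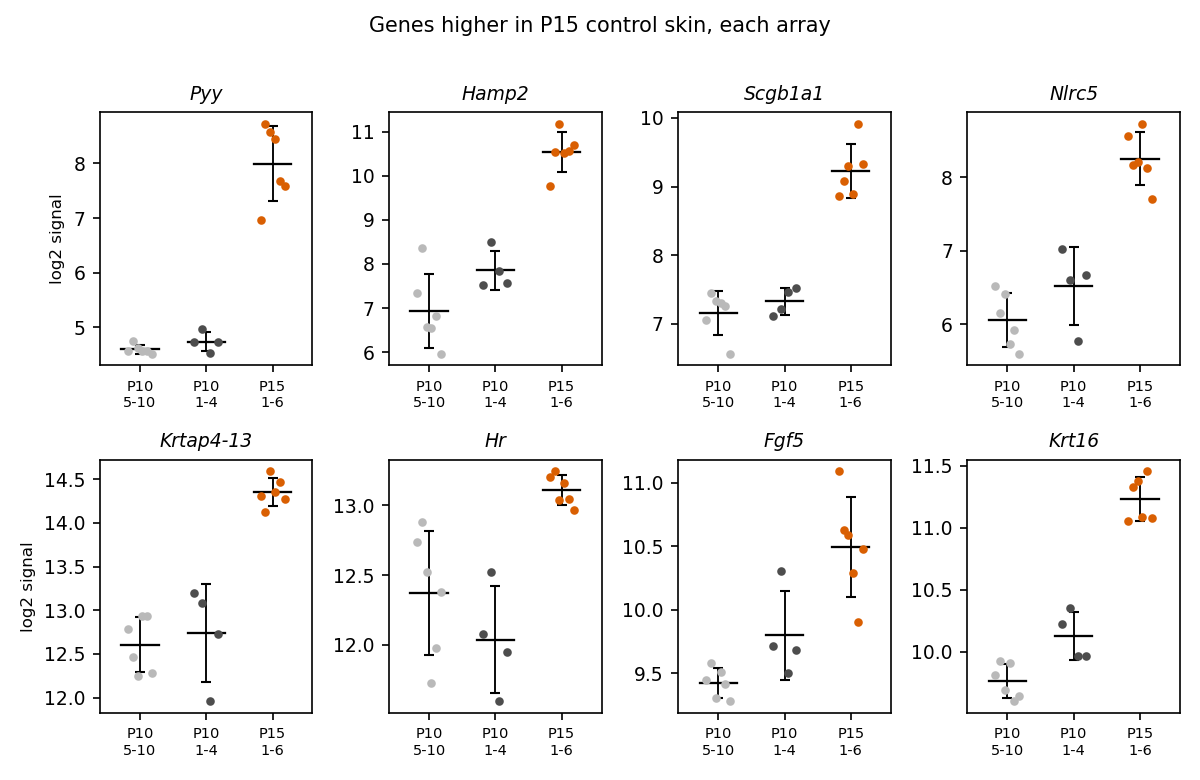
Log2 signal of 8 genes that were higher at P15, with 1 point per array for P10 controls 5 to 10 (other slides), P10 controls 1 to 4 and P15 controls 1 to 6, means as lines and SDs as bars. Except for Fgf5, every P15 point lies above the points of P10 controls 1 to 4.

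In the outer root sheath and the epidermis, several genes of barrier and defence rose. Among 11 genes of the outer root sheath and its companion layer 5 rose and 0 fell, with 2 rises under median scaling. Krt16, a keratin of the outer root sheath that stressed epidermis also makes, gave 10.22, 10.35, 9.97 and 9.97 and then between 11.05 and 11.45 with a median of 11.21, a rise of 2.15-fold (SE 0.17, limma adjusted p = 7.34e-05), and its partner Krt6b rose 1.87-fold (SE 0.22, limma adjusted p = 0.00405). Of 18 antimicrobial and epidermal stress genes 11 rose and 2 fell (median 0.63), and 5 rose under median scaling (median 0.34). S100a8, a subunit of the antimicrobial complex calprotectin, went from 11.36, 11.80, 12.04 and 12.13 to between 12.39 and 12.83 with a median of 12.68 and rose 1.76-fold (SE 0.17, limma adjusted p = 0.00111). Its partner S100a9 and the cytokine gene Il1a rose 2.84-fold and 2.16-fold, and were named after their values were seen. The 2 falls were the cysteine protease inhibitors Stfa1 and Stfa2. Stfa1 gave 9.36, 9.95, 11.09 and 11.32 at P10 and values between 7.56 and 9.31 with a median of 8.06 at P15, and fell 4.45-fold (SE 0.43, limma adjusted p = 7.75e-04). Stfa2, detected on 2 of 6 P15 arrays, fell 2.37-fold with bounds (limma adjusted p = 0.00128), with overlapping values.

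Of 31 cornified envelope genes, whose products form the tough shell of dead keratinocytes, 9 rose and 1 fell, with a median of 0.29. Under median scaling 3 rose and 3 fell, and the median relative to all genes was 0.31. Scel, the envelope protein sciellin, gave 10.73, 10.74, 10.67 and 10.71 and then between 11.20 and 11.65 with a median of 11.50, a rise of 1.69-fold (SE 0.11, limma adjusted p = 2.17e-05). Lce1a2, a late envelope protein, rose 1.78-fold (SE 0.14, limma adjusted p = 1.01e-04). Sprr2f, a small proline-rich protein, was detected on 2 of 4 P10 arrays and all 6 at P15 and rose 2.14-fold with bounds (limma adjusted p = 1.22e-04), with log2 differences of 2.68 on slide 3 and 0.77 on slide 4. The fall was Lce3c (2.72-fold with bounds, limma adjusted p = 0.0463), named after its values were seen, a call that held in 3 of the 10 fits that leave out an array. Of 15 barrier lipid genes 6 rose, among them Ugcg, which makes glucosylceramides and rose 1.60-fold (SE 0.14, limma adjusted p = 0.00150). Sdr9c7, an oxidoreductase of the ceramide pathway, rose 1.55-fold (SE 0.14, limma adjusted p = 0.00197), with 0.17 and 0.29 on the log2 scale and no call for its 2 other probes. Under median scaling 0 of the 15 passed, and 207 of all 9045 genes were higher. The median of the 15 relative to all genes was then 0.29, beside a median of 0.34 in the main scaling. Among 11 kallikreins and related proteases and inhibitors 4 rose and 1 fell. The fall was Klk13, from 7.26, 7.31, 7.59 and 7.50 to values between 4.76 and 6.77 with a median of 6.24. It was detected on 3 of 6 P15 arrays and fell 1.93-fold with bounds (limma adjusted p = 4.72e-04). None of the 4 rises passed under median scaling, where the list median relative to all genes was 0.25. With each array left out in turn Klk6 and Prss8 held, whose rises were 1.62-fold and 1.45-fold (limma adjusted p = 0.0102 and 0.00153). The basal and suprabasal keratins Krt14, Krt5 and Krt10 gave log2 differences of 0.23, 0.33 and 0.46 that did not pass.

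Fat and lipid genes fell in part. Of 17 adipocyte genes 7 fell and 0 rose (median -0.50, or -0.29 with undetected members at their bound). Car3, a carbonic anhydrase abundant in fat and muscle, gave 12.12, 11.42, 11.57 and 11.57 and then between 9.05 and 10.55 with a median of 9.74, and fell 3.75-fold (SE 0.33, limma adjusted p = 1.87e-04). Lpl, the lipase that takes up circulating fat, went from 13.46, 13.04, 12.97 and 13.29 to between 12.11 and 12.51 with a median of 12.28, a fall of 1.89-fold (SE 0.17, limma adjusted p = 3.81e-04). The adipokine gene Adipoq fell 1.85-fold (SE 0.20, limma adjusted p = 0.00202), while the lipases Pnpla2 (-0.10 on the log2 scale) and Lipe (0.12) did not pass. With the muscle signal as a covariate 3 of the 17 passed. Of 18 sterol synthesis genes 5 fell and 1 rose. Under median scaling 7 fell and 0 rose, against 2045 and 207 of all 9045 genes. Stard4, a cholesterol carrier, fell 1.65-fold (SE 0.14, limma adjusted p = 7.10e-04). Fdps, the farnesyl diphosphate synthase, fell 1.46-fold (SE 0.13, limma adjusted p = 0.00488). Idi2, an isopentenyl diphosphate isomerase, gave 6.94, 7.69, 9.41 and 9.24 at P10 and values between 5.78 and 6.56 with a median of 6.22 at P15, and was detected on 1 of 6 P15 arrays. Its fall was 3.93-fold with bounds (limma adjusted p = 1.37e-04), with -3.17 on slide 3 and -1.15 on slide 4 on the log2 scale. Of 75 respiratory chain genes 13 fell and 0 rose (median -0.18, -0.27 on slide 3 and -0.07 on slide 4). With the muscle signal as a covariate 7 fell and 1 rose, against 743 and 857 of all 9045 genes. Cox6a2 and Cox8b, subunits known from muscle mitochondria, were detected on 2 of 6 and 1 of 6 P15 arrays. They were lower by folds of 3.33 and 2.07 with bounds, with calls that held in 8 and 9 of the 10 fits that leave out an array, and were named after their values were seen. Ndufa10, a subunit of complex I, fell 1.62-fold (SE 0.17, limma adjusted p = 0.00402).

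Blood and immune genes moved in different directions, and several of their list counts lie near the shares of all genes (11.6% higher and 10.6% lower). Mast cell proteases fell: Cma1, a chymase, gave 8.72, 8.37, 9.03 and 9.00 and then between 6.51 and 7.64 with a median of 7.04, a fall of 3.17-fold (SE 0.24, limma adjusted p = 2.85e-05). Cpa3, the mast cell carboxypeptidase, fell 2.94-fold (SE 0.25, limma adjusted p = 7.98e-05) from 9.48, 9.94, 9.97 and 10.12 to values between 7.81 and 8.88 with a median of 8.25. Of its other probes 1 fell too (log2 difference -1.35) and 1 did not pass (-0.42, limma adjusted p = 0.182). Mcpt4 fell 1.94-fold (SE 0.21, limma adjusted p = 0.00160). Of the 8 mast cell genes 4 fell and 0 rose, and Hdc, which makes histamine, did not pass (-0.06 on the log2 scale). Cd207, the langerin of Langerhans cells, was detected on 1 of 4 P10 arrays and 5 of 6 P15 arrays and rose 2.10-fold with bounds (limma adjusted p = 0.00177). Nlrc5, a transactivator of MHC class I genes, went from 7.03, 6.59, 5.77 and 6.67, detected on 3 of 4 arrays, to between 7.70 and 8.73 with a median of 8.19 and rose 3.24-fold with bounds (limma adjusted p = 1.20e-06). Of 13 interferon response genes 2 rose and 0 fell, with Usp18, a negative regulator of interferon signalling, 2.19-fold (SE 0.25, limma adjusted p = 0.00191) higher. Under median scaling 1 rose. Among 20 macrophage and dendritic cell genes 2 rose and 4 fell, and among 5 T cell genes 1 rose and 1 fell. Under median scaling 1 and 0 rose.

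Red cell genes split. The alpha-globin gene Hba-a1 gave 14.50, 14.27, 14.25 and 14.24 and then between 12.60 and 12.96 with a median of 12.80 and fell 2.89-fold (SE 0.16, limma adjusted p = 4.02e-07). The beta-globin gene Hbb-bt fell 1.93-fold (SE 0.19, limma adjusted p = 9.74e-04), and the haem synthesis gene Alas2 1.72-fold (SE 0.20, limma adjusted p = 0.00608), a call that ended with the muscle covariate. Slc4a1, the anion exchanger of the red cell membrane, rose 1.66-fold (SE 0.14, limma adjusted p = 7.42e-04), from 10.79, 11.13, 11.31 and 11.42 to values between 11.72 and 12.07 with a median of 11.92. In the endothelium 2 of 14 genes fell and 0 rose, against 10.6% and 11.6% of all genes. Aplnr, the apelin receptor of sprouting vessels, was detected on 3 of 6 P15 arrays and fell 1.77-fold with bounds (limma adjusted p = 1.94e-04). Gap43, a protein of growing axons, was detected on 3 of 4 P10 arrays and 0 of 6 at P15. Its signals were 5.48 to 6.26 at P10 and 4.57 to 4.83 at P15 (limma adjusted p = 2.26e-04), and no fold is given since both lie near the dimmest detected signals.

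Outside these groups, 3 of the largest rises were of secreted proteins. Pyy, the gut hormone peptide YY, gave 4.72, 4.97, 4.53 and 4.72 at P10, where it was not detected, and values between 6.97 and 8.72 with a median of 8.06 at P15, where it was detected on all 6 arrays, and was at least 4.20-fold (limma adjusted p = 2.72e-06) higher. Hamp2, of the hepcidin family of iron hormones, went from 7.52, 8.49, 7.84 and 7.57 to between 9.76 and 11.17 with a median of 10.55 and rose 6.44-fold (SE 0.31, limma adjusted p = 1.20e-06). Scgb1a1, a secretoglobin known from airway club cells, gave 7.11, 7.21, 7.47 and 7.52 and then between 8.86 and 9.91 with a median of 9.19, a rise of 3.73-fold (SE 0.23, limma adjusted p = 2.42e-06). It had been listed as a lung marker, while the lung marker Sftpc was not detected. The X-linked adhesion gene Tro rose 3.70-fold (SE 0.42, limma adjusted p = 0.00216), and its log2 difference was 2.20 with the Xist and Eif2s3y term. The Ral exchange factor gene Rgl1 rose 3.40-fold (SE 0.37, limma adjusted p = 0.00129), and the tetraspanin gene Tspan8, detected on 1 of 4 P10 arrays, 2.84-fold with bounds (limma adjusted p = 1.41e-05). Ramp3, which modifies receptors of the calcitonin family, rose 3.19-fold (SE 0.37, limma adjusted p = 0.00208), with log2 differences of 2.49 on slide 3 and 0.86 on slide 4. Among the falls, Ddx6, an RNA helicase of cytoplasmic processing bodies, went from 10.21, 10.40, 10.56 and 10.62 to between 7.20 and 8.44 with a median of 7.81, a fall of 6.16-fold (SE 0.18, limma adjusted p = 1.78e-10). Its 2 other tested probes gave log2 differences of -1.48 and -2.30. Zbtb7a, a zinc finger repressor, gave 10.00, 10.62, 10.68 and 10.54 and then between 7.41 and 8.20 with a median of 7.94 and fell 6.06-fold (SE 0.27, limma adjusted p = 4.02e-07). Lrat, which stores retinol as its ester, gave 7.23, 6.84, 7.44 and 7.29 and then between 4.44 and 5.12 with a median of 4.52, was detected on 0 of 6 P15 arrays and was at least 1.91-fold (limma adjusted p = 1.66e-11) lower. Apoc4, an apolipoprotein gene, and Thsd4, which encodes a microfibril-associated protein, were also detected on no P15 array and were at least 1.96-fold (limma adjusted p = 2.72e-06) and at least 2.51-fold (limma adjusted p = 7.59e-09) lower.

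**Figure D5:**
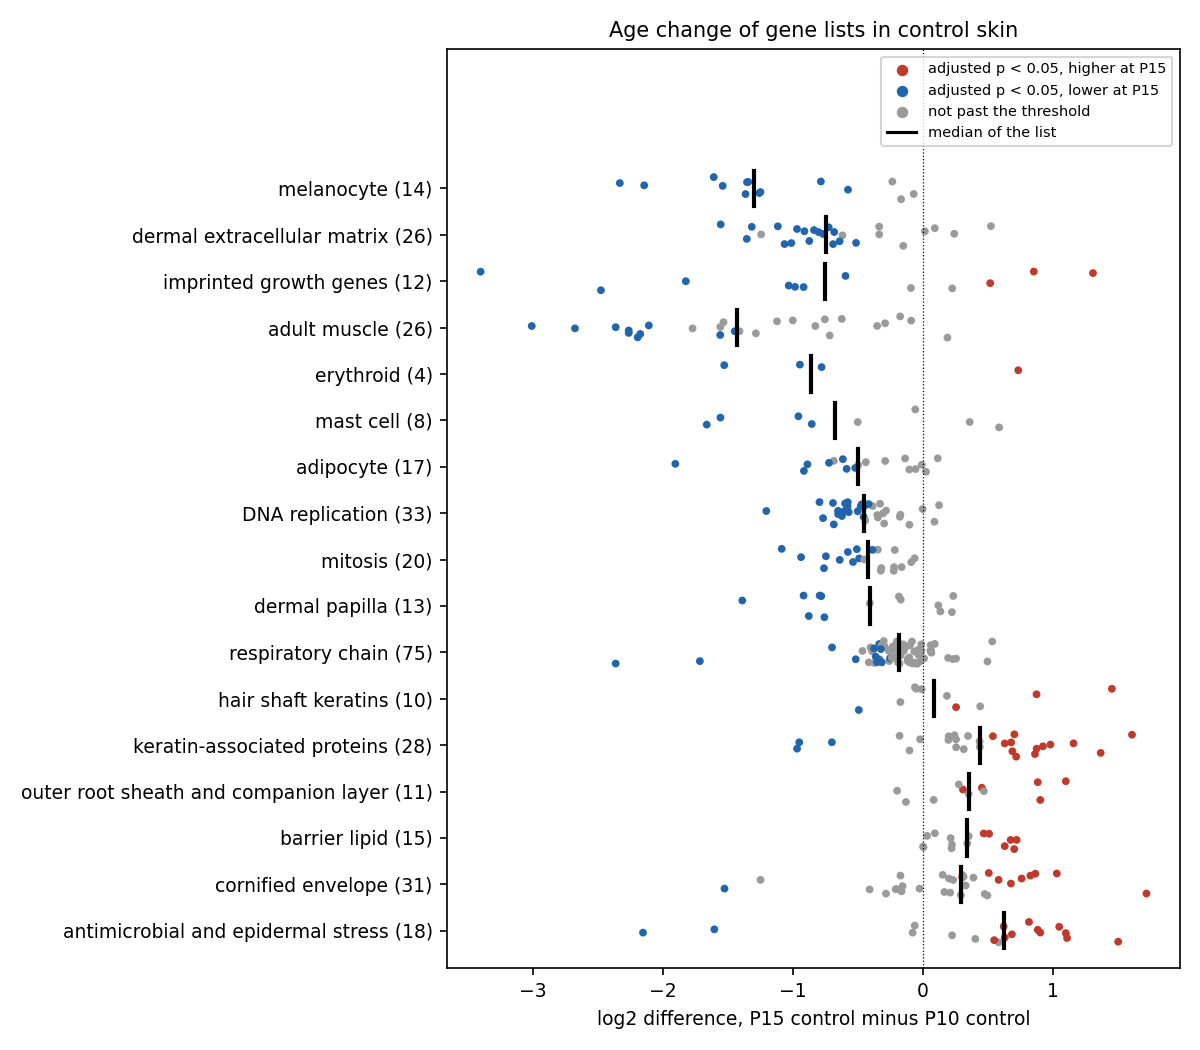
Log2 difference between P15 and P10 controls for each tested member of 17 gene lists, coloured by the limma call, with the list median as a black bar and the number of members tested in brackets. The first 11 lists, from melanocyte to respiratory chain, have medians below 0, and the other 6 above it.

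Signalling pathway lists held both rises and falls, against 11.6% of all genes higher and 10.6% lower. Sp5, a target gene of Wnt signalling, gave 5.58, 6.47, 6.96 and 7.35 and then between 4.56 and 5.01 with a median of 4.75, was detected on 0 of 6 P15 arrays and was at least 1.25-fold (limma adjusted p = 3.87e-06) lower. Of 17 Wnt pathway genes 3 fell and 0 rose, and the target gene Axin2 gave -0.15 on the log2 scale and did not pass. In the BMP pathway 2 of 15 rose and 0 fell (1 and 1 under median scaling). The type I receptor gene Bmpr1b gave 5.82, 6.12, 5.99 and 5.77, detected on 3 of 4 arrays, and then between 6.73 and 7.51 with a median of 7.03, and rose 2.03-fold with bounds (limma adjusted p = 4.10e-04). The other probe of Bmpr1b gave a log2 difference of 0.20 (limma adjusted p = 0.626). Of 13 genes of the EGF receptor and ERK pathway 3 rose and 2 fell: the ligand Btc rose 2.05-fold (SE 0.23, limma adjusted p = 0.00250), and the ligand Hbegf 1.61-fold (SE 0.16, limma adjusted p = 0.00261), a call that ended under median scaling. That scaling gave 1 rise and 3 falls in the list. Gab1 itself gave 11.52, 11.60, 11.42 and 11.01 at P10 and values between 11.29 and 11.85 with a median of 11.63 at P15 and did not pass (log2 difference 0.22, limma adjusted p = 0.217). Among 13 genes of the FGF family 4 rose and 3 fell, with the receptor gene Fgfr3 1.98-fold (SE 0.17, limma adjusted p = 1.47e-04) and Fgf1 1.84-fold (SE 0.19, limma adjusted p = 0.00152) higher. The other probe of Fgf1 gave a log2 difference of 0.22 (limma adjusted p = 0.387). Under median scaling 3 of the 13 rose and 5 fell. In the Notch pathway 3 of 10 rose and 0 fell (1 and 1 under median scaling). The ligand Dll1 gave 6.53, 6.67, 6.07 and 6.65 and then between 7.04 and 7.36 with a median of 7.25 and rose 1.69-fold (SE 0.13, limma adjusted p = 1.96e-04). Of 13 circadian clock genes 2 rose and 0 fell (median 0.26), and under median scaling 0 rose and 3 fell. That scaling gave 207 rises and 2045 falls among all 9045 genes, and the list median relative to all genes was 0.20. Of 15 immediate early and heat shock genes 3 rose and 0 fell, with 1 rise under median scaling, and the AP-1 subunit gene Junb was 1.57-fold (SE 0.11, limma adjusted p = 2.30e-04) higher. Of 13 glucocorticoid-responsive genes 5 rose and 1 fell, which became 1 rise and 2 falls under median scaling. The list median was 0.35 in the comparison and 0.0046 against the 6 other P10 controls. The gene that fell was the metallothionein gene Mt1, 1.58-fold (SE 0.11, limma adjusted p = 1.23e-04) lower.

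The same age change was measured in the mutants, between 6 P15 and 6 P10 mutants, and the difference between the 2 changes was tested in the same limma fit. It passed for 353 of the 9045 genes (3.90%), among them 180 of the 2012 genes called in controls and 38 of the 165 genes chosen for naming. Median scaling gave 211 genes, array weights 1481, and a block for the replicate number 0. Whether that number pairs the arrays could not be settled. P15 mutant 5 stood apart from the other P15 mutants, with a median raw signal of 172.3 against 53.2 to 65.9 and 8836 probes detected against 10638 to 11132. Without that array, a setting added after the values were seen, 611 genes passed, 346 of the 353 among them. Some melanocyte and cell cycle genes were among the 353: the difference was 1.11 for Dct, 0.87 for Mcm5, 1.05 for Cdc20 and 0.84 for Birc5 on the log2 scale, opposite in sign to the fall in controls. For Mest (-2.10), Car3 (-1.87), Adipoq (-1.35) and Col1a1 (-1.17, without a call under median scaling) it had the sign of the fall in controls. Rises in controls with a difference of opposite sign included Hamp2 (-1.69, without a call in the authors' processed values) and Bmpr1b (-1.49), while Sprr2f (2.07) had the sign of its rise. The 2 mutant groups lay on different slides and were compared through the controls of those slides. Dlk1 (-0.74, limma adjusted p = 0.528), Igf2 (-0.83, limma adjusted p = 0.443) and Socs2 (0.27, limma adjusted p = 0.547) did not pass in that test.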

How the data were processed

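Total RNA of dorsal skin was labelled with biotin and hybridised to Illumina BeadChips, per the labels. The deposited raw table gives for each array the signal intensity of 25697 probes and a detection p-value, per the file headers, and the submitters' processing notes name GenomeStudio. The other deposited table holds values the authors had processed, a score whose scale and normalization no label or header states (column medians 26.5 to 27.2, 25.6% of values below 0), used as an alternative only.

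Intensities were corrected with normexp from the detection p-values (neqc, offset 16), quantile normalized and put on the log2 scale (limma 3.58.1, R 4.3.3). Probes with a detection p below 0.01 on at least 6 of 28 arrays were kept (12834), and the probe of highest mean signal stood for each of 9045 genes. Probes were named through the platform annotation given here, with symbols updated by gene ID: 23978 had 1 symbol and 1719 none. One limma fit (lmFit and eBayes, two-sided, Benjamini-Hochberg over 9045 genes, threshold 0.05) held 4 groups and 4 slides on all 28 arrays, so the age contrast rests on slides 3 and 4. Named genes were the 14 largest non-overlapping rises and falls, up to 4 called members per list with the smallest p, and Gab1, Fgf5, Shh, Lef1, Msx2, Krt15, Col1a1, Adipoq, Igf2 and Dlk1. Unnamed or predicted genes, and genes with another probe called in the opposite direction, were left out of the largest changes. Genes beyond that rule were picked with their values known. The members, the 44 gene lists and the tests were chosen with earlier results of these data known. On simulated data for the age contrast with 200 of 9045 genes changed, 32% of 1.5-fold, 86% of 2-fold, 98% of 3-fold and 100% of 4-fold changes were called, and 8 unchanged genes. In the data 2012 genes were called, and the simulated noise was independent between genes and arrays. These rates therefore need not hold for this comparison, and shared effects of array, position or muscle were not simulated. The number of arrays limits the precision.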

Additional observations from a re-analysis of the deposited data

Results flagged for a closer look

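Among the 149 genes examined for this, the log2 signal of 1 array stood apart from the others of its group 23 times in 298 groups, by Dixon's criterion at the 95% level. Chance flags about 1 group in 20. Muscle genes account for the arrays apart at P15 control 2: Ckm (9.68), Cox8b (7.98), Myh8 (8.72), Mylpf (10.89) and Sln (7.47), with Dlk1 (5.06) in the same array. Other P15 arrays that stood apart were control 1 for Klk13 (4.76), control 5 for Lrat (5.12) and Mad2l1 (8.63), and control 6 for Fgf1 (7.89) and Stfa2 (7.60). The values of Dlk1, Klk13 and Lrat lay below the dimmest detected signal of their array (6.34, 6.54 and 6.19), so those probes were not detected there. Of the P10 arrays, control 1 stood apart for Axin2 (9.32), Col4a2 (11.72), Hba-a1 (14.50), Kif23 (9.44) and Krt71 (15.29). P10 control 2 did so for Krt6b (10.68), Pcolce (9.23) and Sdr9c7 (7.03), and P10 control 3 for Aplnr (7.33), Eln (11.06), Lamb3 (9.68) and Tnc (10.35).

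The age change in mutants minus that in controls passed a limma adjusted p of 0.05 for 39 of the 149 genes, given here as log2 differences. Of the 39, 24 passed again under median scaling and 0 with the replicate block, and 39 and 38 kept their sign. Cell cycle genes had positive differences: Birc5 (0.84), Ccnd1 (0.55), Cdc20 (1.05), Chaf1b (0.63), Kif23 (0.97), Mcm2 (0.68), Mcm5 (0.87), Mcm10 (0.92), Tk1 (0.68) and Top2a (0.68). So had the melanocyte genes Dct (1.11) and Mlana (1.04), and Idi2 (3.15), Lce3c (3.91), Lrat (0.85), Mt1 (0.59), Sprr2f (2.07) and Wif1 (1.02). Genes of matrix and fat had negative differences: Col1a1 (-1.17), Col6a2 (-0.75), Eln (-0.95), Lum (-1.03), Pcolce (-0.93), Bmp1 (-0.47), Adipoq (-1.35), Car3 (-1.87), Lipe (-1.34) and Pnpla2 (-0.78). Negative differences were also found for Mest (-2.10), Dio3 (-1.26), Bmpr1b (-1.49), Btc (-1.03), Fgf1 (-0.95), Hamp2 (-1.69), Pyy (-1.77), Tspan8 (-1.05), Krt15 (-0.88), Krt40 (-0.92) and Krtap31-2 (-1.14).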

How the results depend on the processing

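The age change was recomputed under 27 alternatives and with an added 2-fold minimum, which left 275 genes (95 higher, 180 lower). Of the 161 named genes past the threshold, 29 kept their call under all 27. Median scaling gave 207 higher and 2045 lower genes. Without a slide term, all 10 P10 controls gave 3677 genes (1978 higher, 1699 lower) and the 6 other P10 controls alone 4674 (2474 and 2200). Slide 3 alone, with 5 control arrays, gave 266 (145 and 121) and slide 4 alone 676 (295 and 381). Leaving out each of the 10 arrays gave 1523 to 1908 genes, 781 to 1001 higher and 742 to 940 lower, the lowest without P10 control 3, and 33 named genes lost their call at least once. Arrays of the same replicate number did not deviate together (residual correlations of -0.22, -0.19, 0.01 and -0.02). The fit had already removed group and slide means, so these correlations cannot exclude a pairing. A replicate block gave 1127 genes (577 and 550). For the difference between the age changes of mutants and controls, 353 genes in the fit as reported, median scaling gave 211 (115 and 96), array weights 1481 (809 and 672), the fit without P15 mutant 5 611 (339 and 272) and the replicate block 0 (0 higher, 0 lower), with 920 at an unadjusted p under 0.05. Log2 differences changed sign for Tchhl1 (-0.18) and Tsc22d3 (-0.0168) against the 6 other P10 controls, Cnp (-0.0278) on slide 3, Gab1 (-0.0165) under median scaling and Krt15 against all 10 P10 controls (-0.0817) and the 6 others (-0.40). Msx2, not past the threshold, gave 0.11 against all 10 P10 controls, 0.20 against the 6 others and 0.16 on slide 4. Without single arrays it gave -0.0782 to 0.0398. The cause of these changes was not tested. Probes near background limit the folds of dim genes: Pyy changed by 3.26 on the log2 scale in the fit as reported, and by 2.27 with an offset of 50.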
